A study of Mus musculus with 20 samples.

Results

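Excitatory synapses of the cortex end on a postsynaptic density, a protein mesh under the membrane that holds glutamate receptors in place and couples them to calcium signalling. The 31 genes described here encode its scaffolds, its calcium/calmodulin-dependent kinase and adhesion molecules that face the presynaptic terminal, including Nlgn2, which acts at inhibitory synapses. They were chosen by name from the 23413 genes in the count tables, by their place in the synapse and not by a threshold on measured values. They comprise the 4 membrane-associated guanylate kinases of the PSD-95 family (Dlg1 to Dlg4), the 4 guanylate kinase-associated proteins (Dlgap1 to Dlgap4), the 6 Shank and Homer genes, the 4 CaMKII subunits with neurogranin (Nrgn), the 7 neuroligins and LRRTMs (Nlgn1 to Nlgn3, Lrrtm1 to Lrrtm4) and 5 further postsynaptic genes (Baiap2, Cnksr2, Kalrn, Lrrc7 and Sorcs3). All 31 were detected in every library and passed the filter on low counts.

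In this density, PSD-95 (Dlg4) and its relatives bind receptors and neuroligins through PDZ domains, the Dlgap proteins link them to Shank, and Homer links Shank to metabotropic glutamate receptors. CaMKII is activated by calcium and calmodulin during long-term potentiation, while neurogranin binds calmodulin at low calcium. Neuroligins and LRRTMs bind presynaptic neurexins, and Kalrn is an exchange factor for Rac that acts on the actin of dendritic spines.

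RNA was measured in frozen brain cortex from 20 APOE4 knock-in mice, whose allele tm1.1(APOE*4)Adiuj puts human APOE4 in place of mouse Apoe, with 1 library per mouse. All mice were 22 months old and had received a control diet (CD) or a ketogenic diet (KD) in isocaloric amounts for 12 months, starting at 10 months of age. Among the females 5 received CD and 4 KD, and among the males 5 received CD and 6 KD. Every mouse carried APOE4, so a diet effect seen here has no comparison with another Apoe genotype. The counts summed to between 12207161 and 29109990 per library, and the 31 genes took 0.529% to 0.729% of them.

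The comparison asks how the ketogenic diet changes gene expression in the cortex of females and males. The study followed up synaptic plasticity and the transcription factor CREB. CREB binds the cAMP response element, whose full form reads TGACGTCA and whose short form reads TGACG. In RefSeq promoters of GRCm38.p6, windows of the 250 bases before a start, which can lie inside the gene, were available for 24 of the 31 genes. None of the 24 held the full element, which was found in 1.77% of the 27025 genes with an entry. The short form was found, on either strand (every full element also holds the short form), in 4 of the 24 (Dlg3, Dlg4, Homer1 and Cnksr2) and in 19.8% of all genes with an entry. The sequences of Dlgap1 and Kalrn are shown because these 2 genes had the smallest p-values for diet in females, and that of Homer1 because it held 3 short forms, given in capitals. Dlgap1 and Homer1 each have a further entry, with 0 short forms (chr17:70561497-70561746 and chr13:93307784-93308033), and the first is shown. They lie at chr17:69968823-69969072 on the plus strand, chr16:34514028-34514277 on the minus strand and chr13:93303507-93303756 on the plus strand. The windows shown for Kalrn and Homer1 lie inside the GENCODE spans of these genes (chr16:33969073-34573532 and chr13:93299635-93405129). They do not cover the bases before the outermost start.
Dlgap1: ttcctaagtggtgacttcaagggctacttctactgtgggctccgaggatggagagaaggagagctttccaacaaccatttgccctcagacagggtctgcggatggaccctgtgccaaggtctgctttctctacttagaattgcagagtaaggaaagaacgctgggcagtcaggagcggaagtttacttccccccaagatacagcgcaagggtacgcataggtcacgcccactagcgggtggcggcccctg
Kalrn: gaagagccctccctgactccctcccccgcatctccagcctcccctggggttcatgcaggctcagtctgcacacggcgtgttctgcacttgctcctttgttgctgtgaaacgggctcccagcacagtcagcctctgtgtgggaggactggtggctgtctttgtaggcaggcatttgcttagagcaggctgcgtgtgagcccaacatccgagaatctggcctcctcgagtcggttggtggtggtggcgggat
Homer1: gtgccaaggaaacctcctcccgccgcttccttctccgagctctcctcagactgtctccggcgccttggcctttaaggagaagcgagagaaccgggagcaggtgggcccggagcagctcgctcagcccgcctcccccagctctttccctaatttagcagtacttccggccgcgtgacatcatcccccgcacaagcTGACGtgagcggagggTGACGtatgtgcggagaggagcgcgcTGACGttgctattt
A match describes letters in a window and not a binding site.

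Before the diets are compared, 4 libraries need to be named, since they stood apart from the rest in the make-up of their RNA. KD females E61, E68 and E207 and CD female E249 had a summed level of 9 cortical excitatory neuron markers of 337 to 417 CPM (counts per 1000000 of the library total), while the other 16 libraries had 743 to 1040 CPM. In the 4 libraries, 6 of the 9 markers lay below every other library. The sum of 16 striatal spiny neuron markers was 1310 to 3731 CPM in the same 4 libraries. In 15 of the others it was at most 963 CPM, but KD male E59 had 4906 CPM together with 2367 CPM of choroid plexus markers. By group, the cortical sum ranged from 379 to 1029 CPM in CD females, 337 to 826 in KD females, 850 to 1040 in CD males and 766 to 957 in KD males. The striatal sum ranged from 350 to 1310 CPM in CD females, 440 to 3731 in KD females, 347 to 963 in CD males and 351 to 4906 in KD males. Inhibitory neuron markers summed to 1572 to 1963 CPM in the 4 libraries and 726 to 1236 in the other 16, and hippocampal neuron markers to 31.8 to 48.4 and 59.5 to 172 CPM, so both sums separated them too. The 7 inhibitory markers did not move together, with a higher mean in the 4 libraries for 4 markers and a lower mean for 3. In the 4 libraries 3 of them lay above every other library and 1 below. Gad1 and Gad2 had the largest medians of that list, at 510 and 178 CPM. Of the 7 hippocampal markers 6 had a lower mean and 1 a higher mean. The microglia sum was 352 to 466 CPM against 263 to 375. No marker of the cortical or striatal list was at 0 in all libraries. These libraries fall mostly in 1 group, so in bulk tissue a lower level of a neuronal gene there cannot be told apart from a smaller share of the cells that express it.

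**Figure D1:**
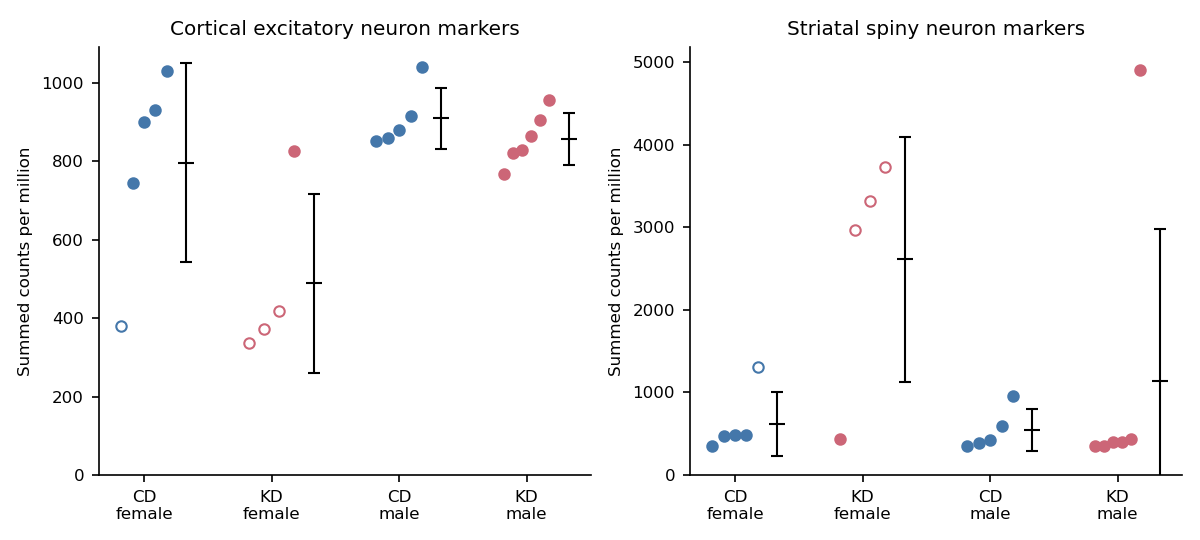
Summed CPM of 9 cortical excitatory neuron markers (left) and 16 striatal spiny neuron markers (right) in each library, by diet and sex. Points are mice, the black bars are mean ± SD, and open points are the 4 libraries with the lowest cortical sum, at 337 to 417 CPM against 743 to 1040 CPM in the other 16.

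Per kilobase of merged exon sequence, the CaMKII subunit Camk2a was the most abundant of the 31 genes, with a median over the 20 libraries of 82.4 CPM per kb. Cnksr2, a scaffold of Ras signalling, followed at 54.9, Nrgn at 54.2, Homer1 at 44.8, Camk2b at 43.7 and Camk2g at 42.1 CPM per kb. The ranges of these genes overlapped, from 50.0 to 109 for Camk2a, from 37.7 to 75.1 for Cnksr2 and from 8.17 to 92.0 for Nrgn, and in CD females E249 and E265 Cnksr2 exceeded Camk2a, so the order is not fixed library by library. Dlg1 was the most abundant member of its family at 38.8 CPM per kb and Dlg4 the least at 11.9. Dlgap1 (31) exceeded Dlgap2 (4.93), Dlgap3 (8.29) and Dlgap4 (4.22). Among the adhesion genes Lrrtm2 was highest at 27.9 and Nlgn3 lowest at 7.23. The 3 Shank genes lay between 3.92 and 4.17 CPM per kb, and Homer3, the least abundant of all, lay at 0.550.

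No member passed the threshold for a diet effect in either sex (quasi-likelihood test in edgeR, Benjamini-Hochberg FDR up to 0.1 and at least a 1.5-fold change). The same threshold was passed by 0.0447% of the 15660 genes tested in females and by 0% in males. At an unadjusted p under 0.05, 7 of the 31 were lower in KD than in CD females and 0 were higher, that is 22.6% of them lower, where 5.5% of all genes tested were lower and 5.86% higher. The 7 were Dlgap1, Kalrn, Cnksr2, Camk2g, Lrrtm2, Camk2a and Homer2. In males 1 of the 31, Camk2d, was higher and 0 were lower, where the shares of all genes were 2.37% and 1.19%. The median fitted log2 fold change over the 31 genes was −0.08 in females, with 17 of 31 below 0, and 0.06 in males, with 8 of 31 below 0. Over all genes tested it was 0.01 in females and −0.00 in males. In neither sex did any of the 31 have CD and KD mice that did not overlap in CPM, whereas 2.1% of all genes tested in females and 0.217% in males had such groups.

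**Figure D2:**
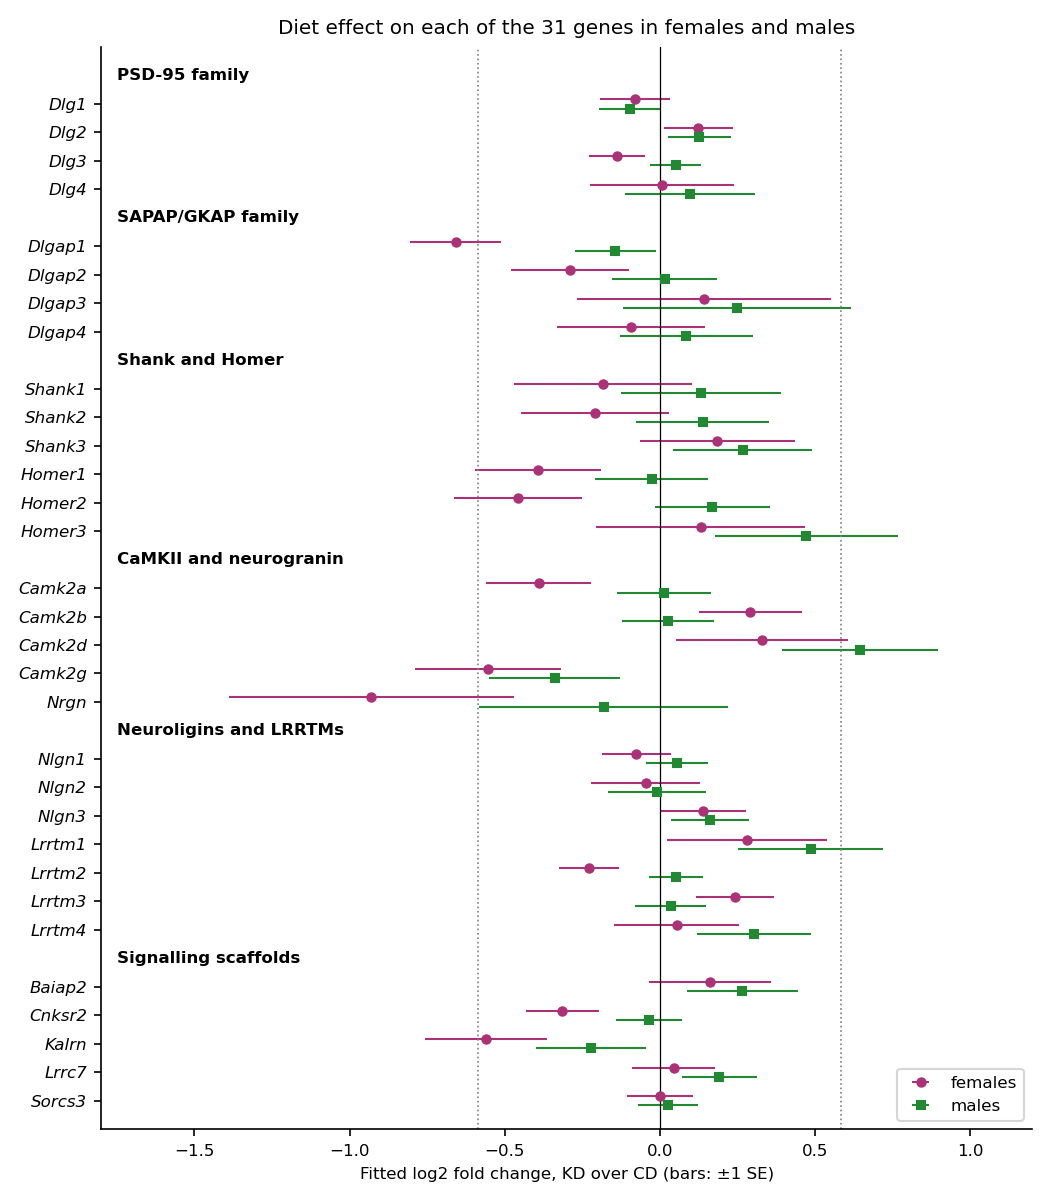
Fitted log2 fold change of KD over CD for each of the 31 genes, by class, in females (circles) and males (squares), with bars of ±1 SE and dotted lines at 1.5-fold. In females Dlgap1 lay at −0.66 and Nrgn at −0.93, and in males Camk2d lay at 0.65, with none of these past the FDR threshold.

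Dlgap1 encodes the scaffold that joins PSD-95 to Shank and lies at chr17:69969073-70821413. In the CD females it was at 411, 570, 570, 651 and 721 CPM, with a mean of 584 ± 116 (SD, n = 5). In the KD females it was at 329, 333, 365 and 513 CPM, with a mean of 385 ± 86.9 (SD, n = 4). The lower 3 KD values lay below every CD female, while KD female E227 (513 CPM) lay above CD female E249 (411 CPM), so the groups overlapped in that pair. The fitted log2 fold change was −0.66 ± 0.15 (SE), a level 36.6% lower, with a 95% confidence interval of −0.96 to −0.35. The adjusted p was 0.161 in edgeR's quasi-likelihood test, and the exact two-sided permutation test on log2 CPM gave p = 0.0397, where the smallest p the 126 splits allow is 0.00794. The edgeR likelihood ratio test and DESeq2 put the adjusted p at 0.0106 and 0.00805, under the threshold. These tests called 220 and 253 of the 15660 genes in females, where the quasi-likelihood test called 7. In males Dlgap1 was at 537, 597, 598, 657 and 688 CPM on CD, and from 497 over a median of 534 to 636 CPM on KD, with a log2 fold change of −0.14 ± 0.13 (SE).

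Dlgap2 to Dlgap4, the relatives of Dlgap1, gave no difference beyond the spread between mice. Dlgap2 was at 21.7 to 39.1 CPM in CD and 21 to 35.2 CPM in KD females, with a log2 fold change of −0.29. Dlgap3 and Dlgap4 varied most within a group rather than between diets. Dlgap3 ranged from 8.60 to 42.0 CPM in CD females and from 15.2 to 75.6 CPM in KD males, and Dlgap4 from 17.3 to 42.7 and from 28.4 to 57.7 CPM.

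Kalrn, the spine-associated Rac exchange factor at chr16:33969073-34573532, was at 454, 741, 800, 857 and 900 CPM in the CD females. In the KD females it was at 383, 429, 486 and 828.6 CPM. The same mice as for Dlgap1 stood apart, with E249 low among the CD females and E227 high among the KD females. Its fitted log2 fold change was −0.56 ± 0.20 (SE), a level 32.2% lower, at an adjusted p of 0.276 by edgeR, and the exact permutation test gave p = 0.111. CD males had 794, 833, 845, 858 and 1004 CPM. KD males had 624 to 887 CPM with a median of 744, and the log2 fold change was −0.22 ± 0.18 (SE).

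Among the CaMKII subunits, Camk2g and Camk2a were lower in KD females and Camk2d was higher in KD males, at unadjusted p-values only. Camk2a, the alpha subunit that is abundant in forebrain excitatory neurons, was at 373, 533, 719, 790 and 797 CPM in CD females. KD females had 421, 472, 493 and 641 CPM, within the CD range. It had a log2 fold change of −0.39 ± 0.17 (SE) in females and 0.01 ± 0.15 (SE) in males. The male values were 558, 581, 677, 694 and 801 CPM on CD, and 533 to 817 CPM with a median of 674 on KD.

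Camk2g, the gamma subunit at chr14:20734875-20794088, was at 121, 257, 267, 313 and 334 CPM in CD females and at 139, 143, 169 and 282 CPM in KD females. CD males had 272, 283, 320, 351 and 356 CPM, and KD males had 197 to 296 CPM with a median of 257. Of the members with an unadjusted p under 0.05 in females it was the one whose male fold change was also largest below 0, at −0.34 ± 0.21 (SE) against −0.55 ± 0.24 (SE) in females. The adjusted p was 0.371 in females and 0.9998 in males by edgeR. The exact permutation test gave p = 0.214 in females and p = 0.0281 in males.

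Camk2d, the delta subunit at chr3:126596302-126846326, had 117, 120, 147, 208 and 222 CPM in CD males. KD males had 126 to 380 CPM with a median of 246, and 4 of the 6 lay above all CD males. The highest values of the 20 libraries were those of KD males E254 (380 CPM) and E64 (358 CPM). These mice also had the lowest sums of 7 oligodendrocyte markers, at 1484 and 1349 CPM, where the next library had 2331 CPM. The part of this in the Camk2d values was not tested. The log2 fold change was 0.65 ± 0.25 (SE), a level 56.4% higher, with a 95% confidence interval of 0.12 to 1.17 and an adjusted p of 0.9998 by edgeR. Without KD male E64, which had 358 CPM, the log2 fold change was 0.47 at an unadjusted p of 0.0696. In females CD mice had 137, 157, 177, 190 and 343 CPM and KD mice 210, 250, 253 and 287 CPM, and the highest value of all 9 was again that of E249.

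Camk2b, the beta subunit, had a log2 fold change of 0.29 ± 0.16 (SE) in females and 0.03 ± 0.15 (SE) in males. Nrgn, at chr9:37544492-37552904, had the largest ratio of highest to lowest library of all 31 genes (11.3), from 11.9 to 134 CPM. In CD females it was at 11.9, 60.7, 97.7, 108 and 117 CPM, and in KD females at 17.1, 27.9, 44.3 and 73.6 CPM. The log2 fold change of −0.93 ± 0.46 (SE) in females was the largest in size of the 31, but its interval from −1.89 to 0.03 included 0. CD males had 58.8 to 134 CPM and KD males 38.36 to 124 CPM.

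**Figure D3:**
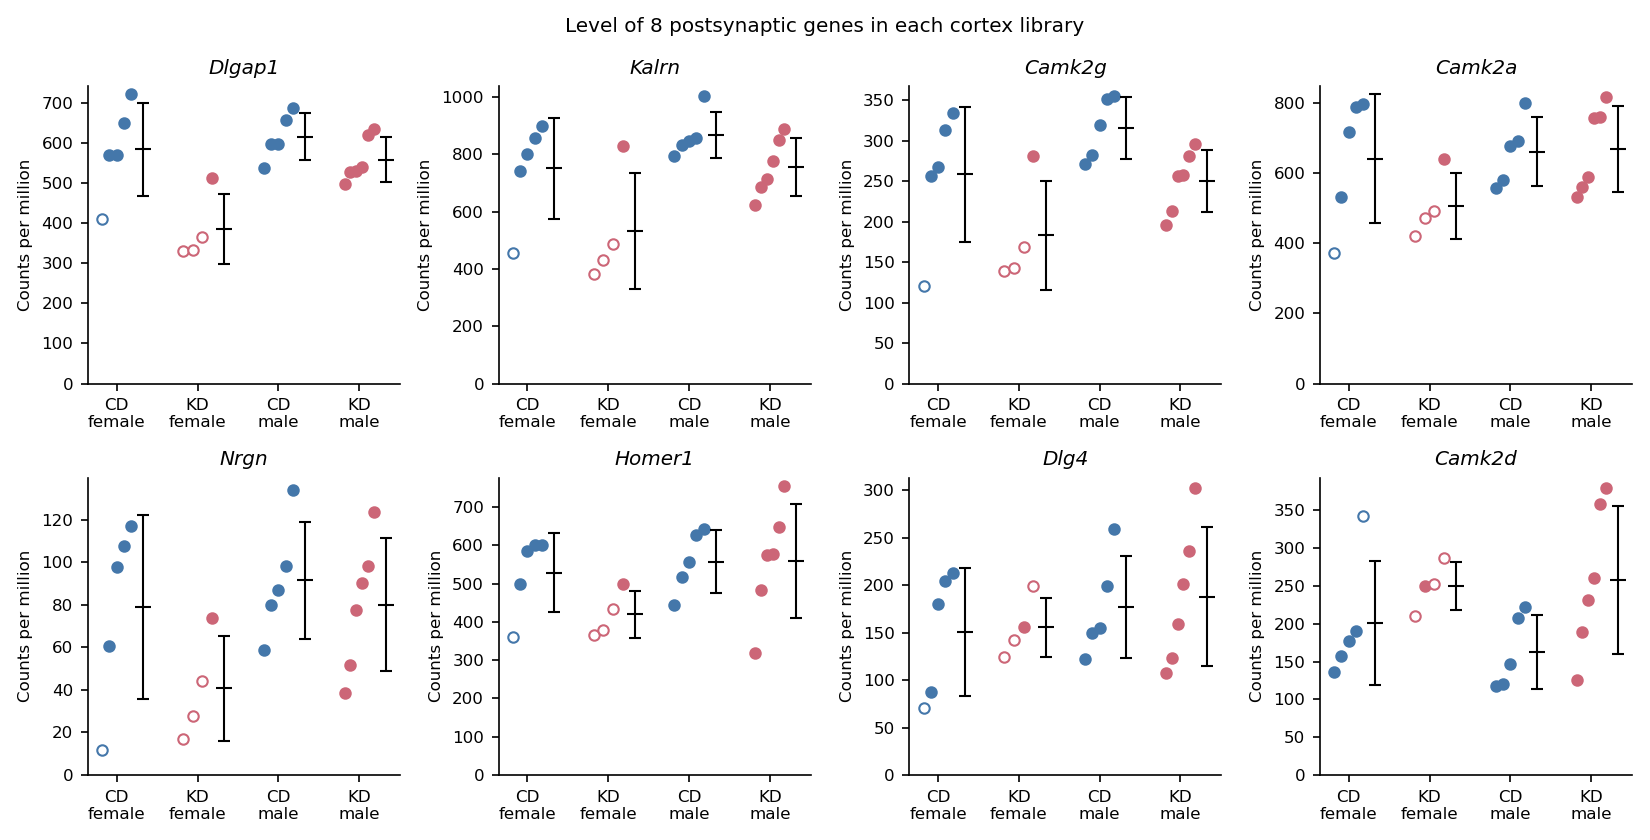
CPM of 8 of the genes in each of the 20 libraries, by diet and sex, with each axis starting at 0. Points are mice, black bars are mean ± SD, and open points are the 4 libraries with the lowest cortical excitatory marker sum; for Dlgap1, Kalrn, Camk2g and Camk2a these 4 are the lowest of the 20.

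The PSD-95 family differed little between diets. Dlg1, also called SAP97, was at 381, 404, 413, 424 and 482 CPM in CD females and 385, 416, 417 and 430 CPM in KD females. In males it was at 405, 412, 448, 456 and 470 CPM on CD and 317 to 473 CPM with a median of 428 on KD, so both sexes overlapped almost completely. The 95% confidence interval of its log2 fold change was −0.32 to 0.16 in females and −0.31 to 0.12 in males. Dlg3, the X-linked SAP102, was at 156, 175, 200, 201 and 243 CPM in CD females and 177, 180, 183 and 206.6 CPM in KD females. CD males had 167, 185, 194, 212 and 212.95 CPM of Dlg3, and KD males 155 to 244 CPM with a median of 206. Dlg4 had a log2 fold change of 0.01 ± 0.23 (SE) in females and 0.10 ± 0.21 (SE) in males, over a range of 70.2 to 302 CPM, and Dlg2 had 0.12 and 0.13.

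Homer proteins tie Shank to group I metabotropic glutamate receptors. Homer1, whose short isoform is induced by activity and was not counted apart here, was at 360, 499, 584, 599 and 600 CPM in CD females and 365, 380, 435 and 500 CPM in KD females. CD males had 444, 516, 557, 627 and 641 CPM, and KD males 317 to 755 CPM with a median of 575. On the log2 scale KD differed from CD by −0.39 ± 0.20 (SE) in females, with an interval from −0.82 to 0.03, and −0.03 ± 0.18 (SE) in males.

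Homer2 was at 90.2, 93.2, 96.8, 129 and 174 CPM in CD females and 66.2, 79.1, 91.0 and 111 CPM in KD females. In males the values were 84.0, 84.5, 86.5, 110 and 119 CPM on CD and 68.7 to 141 CPM, with a median of 113, on KD. On the log2 scale the difference was −0.46 ± 0.21 (SE) in females and 0.17 ± 0.19 (SE) in males. Its highest value among the CD females was that of E249. Homer3, at 0.794 to 4.03 CPM, rested on 10 to 112 counts per library and overlaps Ddx49, so its values are uncertain. It was at 0.794, 1.13, 1.15, 2.14 and 2.43 CPM in CD females and 1.34, 1.82, 1.85 and 2.13 CPM in KD females. CD males had 1.19, 1.32, 1.65, 2.30 and 2.47 CPM of it, and KD males 1.14 to 4.03 CPM with a median of 2.13.

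The Shank genes, the master scaffolds beneath the PSD-95 layer, had values that overlapped widely between the diets. Shank1 ranged from 22.6 to 70.4 CPM, Shank2 from 20.1 to 70.3 and Shank3 from 18.6 to 59.3. In females their log2 fold changes were −0.18, −0.21 and 0.19, with SEs of 0.24 to 0.29. In males the 3 values were 0.13, 0.14 and 0.27.

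Of the adhesion genes, Lrrtm2 had an unadjusted p under 0.05 in females, with the narrowest spread of all 31 genes. It was at 161, 167, 174, 181 and 183 CPM in CD females and 137, 149, 159 and 166 CPM in KD females. In males it was at 152, 158, 169, 171 and 178 CPM on CD and 137 to 198 CPM, with a median of 178, on KD. The log2 fold change was −0.23 ± 0.10 (SE) in females, 14.7% lower, at an adjusted p of 0.371 by edgeR and p = 0.0317 by the exact permutation test. Lrrtm2 lies within Ctnna1, Lrrtm1 within Ctnna2 and Lrrtm3 within Ctnna3, and the strand setting of the counting is not given in the sources used here. Of these, Lrrtm1 and Lrrtm3 share no exon bases with another gene. In all, 22 of the 31 genes overlap another gene, 12 of them in an exon. Where exons overlap on opposite strands, reads of the pair cannot be told apart without strand. The exon overlaps of Dlg2 and Nlgn3 are on the same strand.

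Lrrtm1 had the second smallest p in males. It was at 15.0, 17.6, 24.2, 24.5 and 25.0 CPM in CD males and 21 to 57.4 CPM, with a median of 25.2, in KD males, where E64 stood alone at 57.4. In females it was at 11.1, 18.9, 19.0, 20.9 and 23.0 CPM on CD and 18.2, 20.8, 25.8 and 30.4 CPM on KD. The log2 fold change was 0.49 ± 0.23 (SE) in males and 0.28 ± 0.26 (SE) in females.

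Lrrtm4, which also binds heparan sulphate glypicans, was at 48.9, 53.2, 53.5, 72.7 and 125 CPM in CD females and 54.9, 69.0, 71.7 and 83.7 CPM in KD females. In males it was at 29.7, 33, 47.9, 63.4 and 77.5 CPM on CD and 40.5 to 87.5 CPM, with a median of 63.3, on KD. The log2 fold changes were 0.05 ± 0.20 (SE) and 0.30 ± 0.18 (SE). Lrrtm3 had a log2 fold change of 0.24 ± 0.13 (SE) in females, with 75.4 to 94.6 CPM on CD and 79.1 to 116 CPM on KD. Neuroligins, the neurexin partners of excitatory (Nlgn1) and inhibitory (Nlgn2) synapses, had log2 fold changes of −0.08, −0.05 and 0.14 (Nlgn3) in females and 0.06, −0.01 and 0.16 in males. Each of the 6 confidence intervals of the neuroligins included 0.

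Cnksr2, on the X chromosome, was at 460, 504, 512, 527 and 696 CPM in CD females and 349, 400, 510 and 517 CPM in KD females. In males it was at 401, 439, 507, 591 and 610 CPM on CD and 409 to 648 CPM, with a median of 512, on KD. The log2 fold change was −0.31 ± 0.12 (SE) in females, at an adjusted p of 0.309 by edgeR, and −0.03 ± 0.11 (SE) in males. The exact permutation test gave p = 0.159 in females. Lrrc7 (densin-180), which binds CaMKII and PSD-95 family partners, was at 121, 152, 184, 196 and 262 CPM in CD females and 139, 146, 202 and 268 CPM in KD females. CD males had 116, 118, 129, 188 and 211 CPM of Lrrc7, and KD males 111 to 235 CPM with a median of 193. Baiap2 (IRSp53), which shapes the spine membrane, had log2 fold changes of 0.16 ± 0.20 (SE) and 0.27 ± 0.18 (SE) in females and males.

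Of the 62 exact permutation tests (31 genes in each sex), 3 gave an unadjusted p under 0.05, where chance alone gives 3.1. They were Dlgap1 and Lrrtm2 in females and Camk2g in males.

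Whether the diet effect differed between females and males was tested as an interaction (female minus male log2 fold change). No member passed the threshold, and 0% of all genes tested did. Of the 31 values, 28 were below 0, with a median of −0.21, whereas 48.7% of all genes tested were below 0 with a median of 0.01. The lean was not particular to the 31. Of 132 other postsynaptic genes, described below, 96 (72.7%) were below 0, with a median of −0.11. So were 9 of 9 cortical excitatory and 7 of 7 hippocampal markers, while 16 of 16 striatal markers were above 0. The female estimates of the 31 genes share the same 9 libraries, so the 28 are not independent of each other. The count was 16 of 31 (median −0.01) with the cortical marker score as a covariate, 16 of 31 (median −0.03) in library series 2 alone, and 22 of 31 (median −0.11) without the 4 libraries low in cortical markers. At an unadjusted p under 0.05, 3 members were lower, or 9.68%, and 0 were higher, with 1.05% and 1.09% of all genes. They were Dlgap1 (−0.51 ± 0.19, SE), Homer2 (−0.63 ± 0.28, SE) and Lrrtm2 (−0.28 ± 0.13, SE), each at an adjusted p of 0.9999 by edgeR.

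Averaged over the sexes, no member passed the threshold for diet, which 0.268% of all genes passed. At an unadjusted p under 0.05, 4 members were lower (Dlgap1, Kalrn, Camk2g and Cnksr2) and 2 were higher (Camk2d and Lrrtm1), beside 6.44% and 7.41% of all genes. The averaged log2 fold change of Dlgap1 was −0.40 ± 0.10 (SE) at an adjusted p of 0.112, the smallest of any member in this comparison.

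Averaged over the diets, no member passed the threshold between the sexes, which 0.134% of all genes passed. At an unadjusted p under 0.05, 3 were lower in females than in males (Dlgap1, Kalrn and Camk2g) and 1 was higher (Sorcs3), beside 4.96% and 8.59% of all genes. Sorcs3, a sorting receptor of the sortilin family, was at 63.8, 67, 72.8, 81.9 and 83.7 CPM in CD females and 72.7, 77.8, 78.4 and 79.4 CPM in KD females. CD males had 60.6, 63.5, 65.9, 68.8 and 70.0 CPM, and KD males 55.0 to 78.9 CPM with a median of 68. The female-minus-male log2 difference of Sorcs3 was 0.17 ± 0.07 (SE). Its level in the 4 libraries with the low cortical marker sum, 72.7 to 78.4 CPM, lay within the range of the other 16 (55.0 to 83.7 CPM). These 4 are all females, and they lay above every CD male while overlapping the KD males. With the cortical marker score as a covariate 0 members, and so not Sorcs3, had an unadjusted p under 0.05 between the sexes. The part of these libraries in the difference was not tested further.

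The female values turned on 2 mice, KD female E227 and CD female E249, whose levels of several members lay nearer to those of the other diet group. Without E249, 4 members passed the threshold, all lower in KD females (Dlgap1, Camk2g, Nrgn and Kalrn), beside 2.68% of all genes lower. Without E227, 5 did (the same 4 and Camk2a), beside 3.23%. Without both mice these 5 passed again, beside 5.65%, with log2 fold changes of −0.95 for Dlgap1, −1.04 for Camk2g, −1.82 for Nrgn, −0.98 for Kalrn and −0.70 for Camk2a. The 5 also passed in library series 1 alone, the 10 libraries with the lower library numbers, which holds KD females E61 and E68 and CD females E62 and E67, beside 2.97%. In library series 2, which holds both E227 and E249, 0 members reached an unadjusted p under 0.05 in females, and the log2 fold change of Dlgap1 was −0.36. The interaction, with both mice left out, was past the threshold for the same 5 genes, all lower, beside 2.11% of all genes. Since E227 and E249 were picked for such levels, with earlier results of these data known, the fits without them describe how far the values turn on these mice and are no independent support for a difference. Leaving out KD male E59, the library with choroid plexus and striatal markers, brought Dlgap1 alone of the members past the threshold in females, at an adjusted p of 0.0970 by edgeR. In that fit 38 of 15504 genes passed, 15 of them lower, where 7 of 15660 passed with all mice.

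The same 4 libraries that were low in cortical excitatory markers were the 4 lowest of the 20 for Dlgap1 (329 to 411 CPM, next 497), Kalrn (383 to 486, next 624), Camk2g (121 to 169, next 197) and Camk2a (373 to 493, next 533). That is 4 of the 31 genes, or 12.9%, where 2.19% of all genes tested had these 4 libraries lowest. For the other 27 members the 4 libraries overlapped the other 16. None of the 31 was highest in all 4. Cortical excitatory markers themselves were lower in KD females for 9 of 9 genes, 5 of them at an unadjusted p under 0.05, and striatal markers higher for 16 of 16, with 11 at that level. In males 9 of 9 and 16 of 16 went the same way, with 0 and 1 at that level.

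With the 4 libraries left out, 0 members had an unadjusted p under 0.05 for diet in females, where KD was then represented by E227 alone, assumed to vary like the other mice. Dlgap1 then had a log2 fold change of −0.28, Kalrn −0.08, Camk2g −0.07 and Nrgn −0.10. With the cortical marker score of each library as a covariate, Dlgap1 had −0.34 ± 0.10 (SE) in females, while Camk2a (0.02) and Camk2g (0.05) changed sign and Kalrn was at −0.06. With the striatal score as covariate the values were −0.36 for Dlgap1, −0.22 for Kalrn and −0.20 for Camk2g. The part of tissue composition in these differences was not tested beyond these fits.

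**Figure D4:**
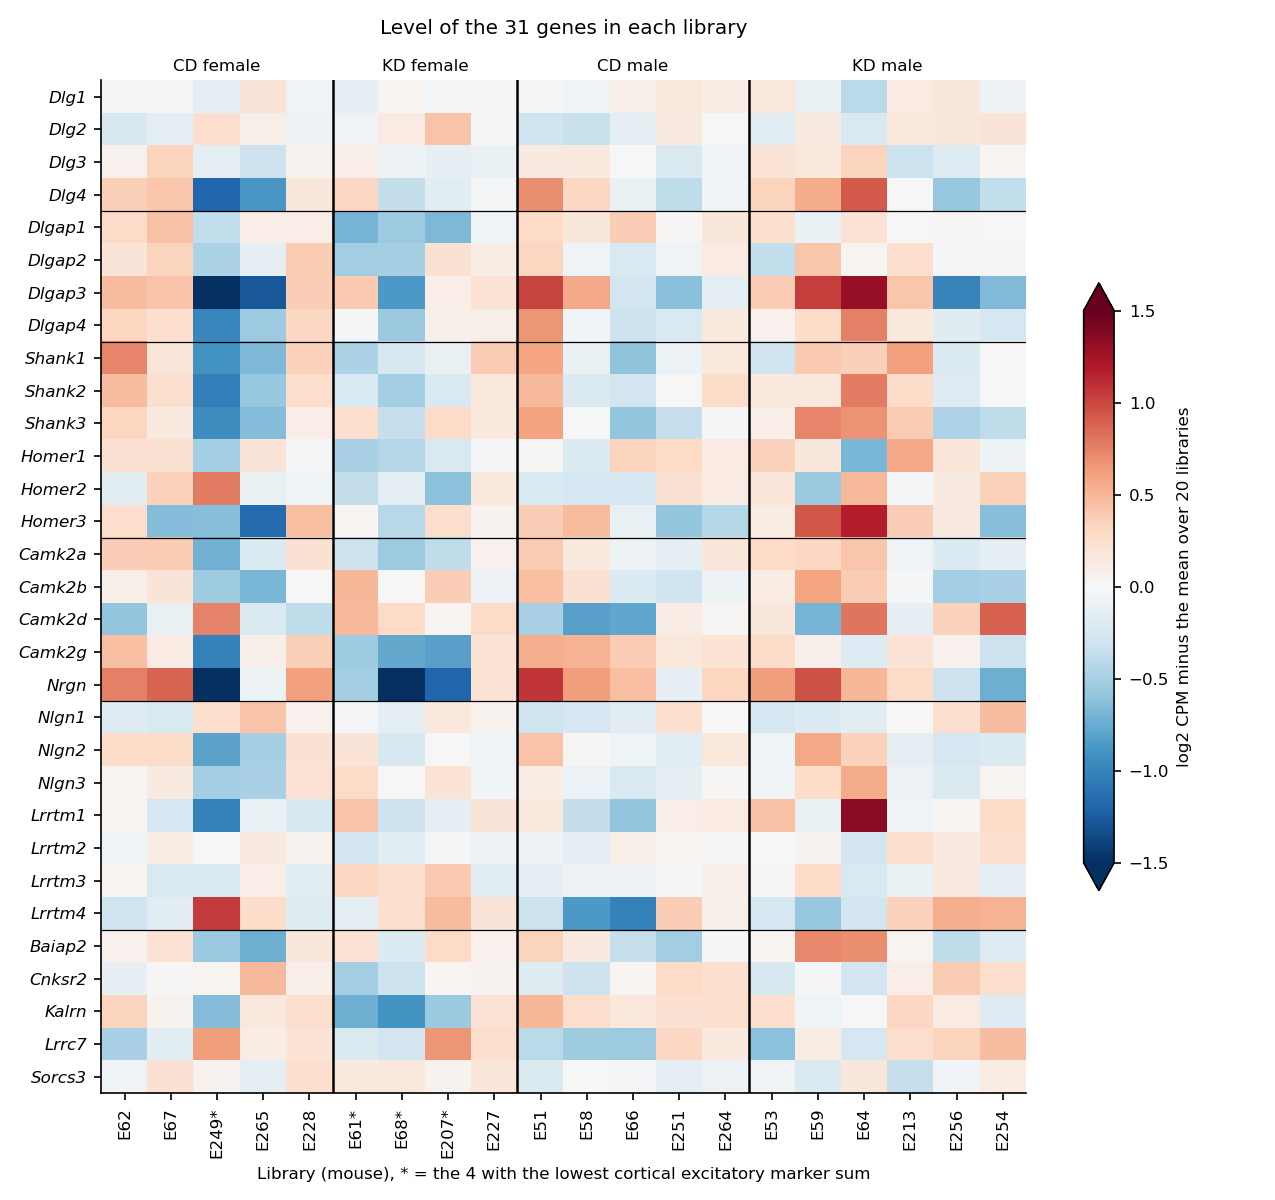
Level of each of the 31 genes in the 20 libraries, as log2 CPM minus the gene's mean over all libraries (red above, blue below, colours end at ±1.5), with black lines between groups and classes and asterisks on the 4 libraries with the lowest cortical marker sum. CD female E249 is the lowest of the 20 for 12 genes and KD male E64 the highest for 9, counts that were not made over all genes.

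Several members were extreme in the same single libraries. CD female E249 was the lowest of the 20 libraries for 12 of the 31 genes, and KD male E64 was the highest for 9 and KD male E59 for 5. The same counts were not made over all genes tested, so they do not show a trait particular to the 31. Dlgap3 ranged from 8.60 CPM in E249 to 75.6 CPM in E64, and Dlg4 from 70.2 to 302 CPM in the same 2 mice. CD female E265 was second lowest for Dlg4 (87.0 CPM), Dlgap3 (12.6 CPM) and Shank3 (22.7 CPM), although its cortical marker sum of 743 CPM was that of the 16.

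The SD of log2 CPM within groups was 0.35 in the median over the 31 genes, from 0.14 for Lrrtm2 to 0.89 for Nrgn, beside a median of 0.31 over 13857 tested genes with a coding transcript. Members with a higher GC content in their longest coding transcript varied more between mice. Across the 31 genes the SD had a Spearman correlation of 0.51 with GC content (Pearson's r 0.53), and across the 13857 genes 0.38 (Pearson's r 0.26). These are descriptions across genes that share the same 20 libraries. The 15 members above the median GC content, from 51.8% to 63.9%, had a median SD of 0.42, and the 16 at or below it had 0.26. The median log2 fold change of diet in females was −0.09 in the first set and −0.04 in the second.

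**Figure D5:**
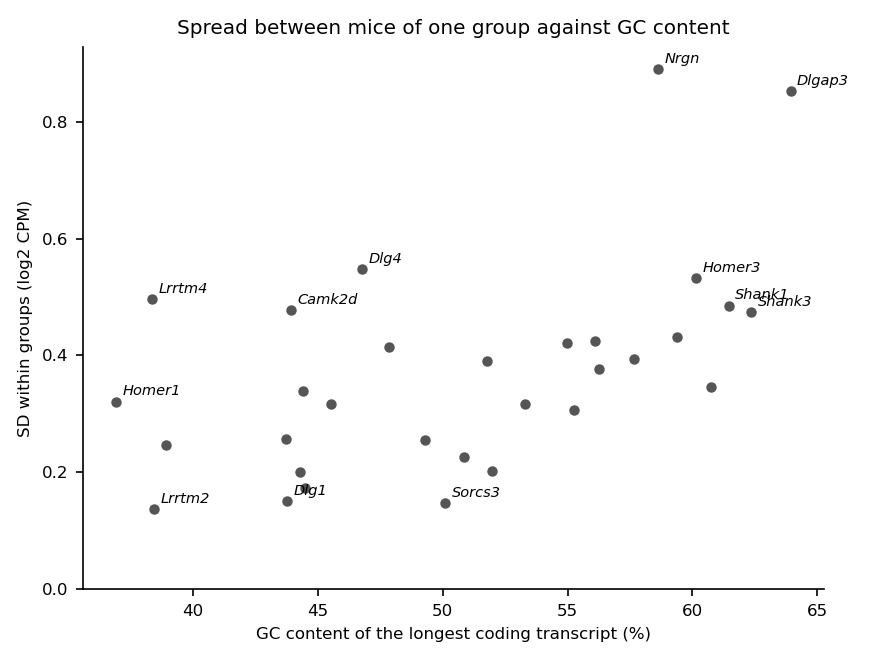
SD of log2 CPM between mice of the same group (4 groups pooled) against the GC content of the longest coding transcript, 1 point per gene for the 31 genes. Nrgn (0.89) and Dlgap3 (0.85) lie highest, and Lrrtm2 (0.14) lies lowest at 38.43% GC.

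The library series, 2 sets of 10 libraries by library number with every group in both, was a further source of spread. In the fit, 12 members differed between the series at an FDR up to 0.1, 6 higher and 6 lower in series 2, beside 33.2% of all genes. Lrrtm4 (0.75 ± 0.14, SE), Lrrc7 (0.70 ± 0.09, SE), Cnksr2 (0.43 ± 0.08, SE) and Nlgn1 (0.42 ± 0.08, SE) were higher in series 2, on the log2 scale. Dlgap3 (−0.77 ± 0.28, SE) and Dlg4 (−0.62 ± 0.16, SE) were lower. Total counts did not overlap between the series, at 21015275 to 29109990 in series 1 and 12207161 to 17697342 in series 2. What else differed is not given in the sources used here.

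Other genes of the postsynapse were examined in 6 lists of 132 genes, all of which were tested. In females 17 of the 132 (12.9%) were lower at an unadjusted p under 0.05 and 8 (6.06%) were higher, beside 5.5% and 5.86% of all genes tested, and 0 passed the threshold. Of the 45 other adhesion genes 8 were lower and 2 higher, of the 39 other density scaffolds 2 and 3, of the 19 CaMK and calmodulin genes 3 and 1, of the 18 regulators of spine GTPases 2 and 2, of the 4 other sortilin family genes 1 and 0, and of the 7 inhibitory synapse scaffolds 1 and 0. Slitrk1, a neurite-associated adhesion molecule, had the smallest p of the 132, with 122 ± 16.9 CPM (SD, n = 5) in CD and 84.4 ± 15.9 CPM (SD, n = 4) in KD females. Its log2 fold change was −0.59 ± 0.12 (SE) in females at an adjusted p of 0.123 by edgeR. Bcr, a GTPase-activating protein for Rac, had 68.3 ± 16 CPM in CD and 131 ± 41.5 CPM in KD females (SD), with a log2 fold change of 0.84 ± 0.21 (SE). Flrt3, a ligand of latrophilins, had 0.52 ± 0.15 (SE) in females.

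In males 7 of the 132 (5.30%) were higher and 0 lower at an unadjusted p under 0.05, beside 2.37% and 1.19% of all genes, led by Nos1 (1.27 ± 0.37, SE), the neuronal nitric oxide synthase tethered to PSD-95, Mdga1 (1.48 ± 0.44, SE), which binds neuroligins, and Bcr (0.50 ± 0.19, SE). In the interaction 3 (2.27%) were lower (Gpc4, Slitrk1 and Slitrk3) and 0 higher, beside 1.05% and 1.09%. Averaged over the sexes 3 of the 132 passed the threshold, which 0.268% of all genes passed, all 3 with higher levels in KD mice. They were Bcr (0.67 ± 0.14, SE, adjusted p 0.0783), Nos1 (1.22 ± 0.27, SE, adjusted p 0.0863) and Mdga1 (1.39 ± 0.32, SE, adjusted p 0.0973), by edgeR. Of the 20 fits that leave out 1 mouse, Bcr and Nos1 passed in 6 each and Mdga1 in 4. Over these fits the log2 fold change ran from 0.55 to 0.74 for Bcr, 1.03 to 1.32 for Nos1 and 1.24 to 1.61 for Mdga1. The number of all genes called moved more, from 42 with all mice to 2 without E51 or E61 and 791 without E249. None of the 3 passed without CD female E62, E67, E228 or E265, KD female E61, E68 or E207, CD male E51, E58 or E66, or KD male E59, E64 or E254. None passed either with the striatal or cortical score as a covariate, in series 2 alone or without the 4 libraries. In the same average over the sexes Slitrk1 had an adjusted p of 0.0748, with a change of −0.39 that is under 1.5-fold. Between the sexes 9 (6.82%) were lower and 6 (4.55%) higher in females at an unadjusted p, beside 4.96% and 8.59%, with the smallest p for Clstn2 (−0.46 ± 0.11, SE), then for Fam196a (0.41 ± 0.13, SE) and Mdga1 (0.84 ± 0.31, SE).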

How the data were processed

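Per the labels and the study's methods, reads of 50 bp in pairs from stranded total RNA libraries were aligned to mm10 with STAR, and the authors deposited the raw counts of reads per gene, 1 table per mouse, without normalization. The versions, annotation and strand setting are not given in the sources used here. The labels' SD diet is the control diet (CD), and library series 1 and 2 follow the 2 runs of numbers in the library names that the labels give. Each replicate is a mouse.

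CPM and log2 CPM (prior count of 2) were computed in Python 3.11.15. Fold changes and their tests came from edgeR 4.0.16 (R 4.3.3), run on 15660 genes that passed filterByExpr, with upper-quartile normalization, the 4 groups and the library series in 1 quasi-likelihood fit of all 20 libraries, and Benjamini-Hochberg adjustment over all genes. A gene was called at FDR up to 0.1 and at least 1.5-fold. Single genes were also compared within each sex by an exact permutation test, which did not take the library series into account. The fit was tested on simulated data. Gene coordinates are those of GENCODE M21 on GRCm38, where 21777 of 23413 names matched, and levels per kb use merged exons.

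The 31 members and the lists were chosen with earlier results of these data known. All 31 are named, with values per mouse for up to 6 members of smallest p per comparison and the most abundant of each class. Nrgn was added after its values were seen. Of the other lists, up to 3 genes per comparison are named. Library totals were at least 12207161 counts. Alternatives were other normalizations, filters, tests and covariates, RUVg as written for this work, each series or sex alone, and leaving out each mouse. DESeq2 1.42.0 served as one of them.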

Additional observations from a re-analysis of the deposited data

Results flagged for a closer look

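In 3 cases 1 mouse lay far from the others of its group for a member, by Dixon's ratio of the gap to the whole range, at the 95% critical value for the group's size. Camk2d in CD females stood out through E249, at 343 CPM (ratio 0.740), Lrrtm1 in KD males by E64, at 57.4 CPM (ratio 0.741), and Cnksr2 in CD females by E265, at 696 CPM (ratio 0.717). These are 3 of 124 combinations of member and group, and chance alone gives about 1 in 20.

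Marker sums gave 11 more. The striatal sum was far higher in E249 among CD females (0.859) and in E59 among KD males (0.982), and the inhibitory neuron sum was highest in the same mice (0.789 and 0.718). E227 stood above the other KD females for the cortical excitatory sum (0.836) and the hippocampal sum (0.906) and below them for the choroid plexus sum (0.836). The pan-neuronal sum was lowest in E249 among CD females (0.868) and in E64 among KD males (0.653). The choroid plexus sum was highest in E249 among CD females, at 43.7 CPM (0.980), and in E59 among KD males, at 2367 CPM (0.988). In all, 14 of 164 combinations stood out, with 8.2 expected by chance. The part of any of these in the members' values was not tested.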

How the results depend on the processing

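The count of members past the threshold for diet in females was 0 in the reported fit, 1 with RUVg (1 or 2 factors), the edgeR likelihood ratio test or DESeq2, and 5 in series 1 alone or without both E227 and E249. Of all genes tested, 7 passed in the reported fit, 34 with 1 RUVg factor and 241 with 2. The likelihood ratio test gave 220 genes, DESeq2 253, series 1 alone 865 and the fit without both mice 1953. Leaving out 1 mouse brought 0 to 1046 genes past it, and 0 to 5 members. The count at an unadjusted p under 0.05 was 7, and became 0 in series 2 alone, 2 with the striatal score, 12 without both E227 and E249, 3 with the cortical score (chosen after seeing the data), 0 without E61, E68, E207 and E249 (also chosen after seeing the data) and 3 with each sex fitted separately. The share of all genes at that level moved too, from 11.4% as reported to 2.70%, 5.14%, 25.7%, 10.8%, 3.10% and 7.76% in the same order. Leaving out 1 mouse gave 2 (without E61) to 10 (without E249), beside 6.39% and 18.7% of all genes. With the cortical score the female values of Camk2a (0.0216) and Camk2g (0.0522) reversed. The cause of these changes was not tested.

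For diet in males, no alternative brought a member past the threshold. The count at an unadjusted p under 0.05 was 1. It became 2 with TMM, no filter, no series term, the likelihood ratio test, DESeq2 or the striatal score. It became 3 with 1 RUVg factor, series 1 alone, the cortical score or each sex separately. It was 4 without both E227 and E249, 5 with 2 RUVg factors and 0 in series 2 alone. Leaving out 1 mouse gave 0 (without E58, E64 or E254) to 3 (without E249). The share of all genes at that level was 3.56% as reported. It was 3.54%, 3.37%, 3.08%, 3.85%, 4.02% and 4.34% in the fits with 2 members, in the same order. It was 5.19%, 6.08%, 4.37% and 4.50% in those with 3. Without both mice it was 5.98%, with 2 RUVg factors 7.25% and in series 2 alone 0.311%. Leaving out 1 mouse gave shares of 1.51% (without E64) to 5.06% (without E249).

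For the interaction, the count past the threshold was 0 and became 5 without both E227 and E249, where 568 of 15943 genes passed. At an unadjusted p under 0.05 the 3 became 5 with 2 RUVg factors, 8 in series 1 and 1 in series 2. They became 1 with either marker score, 7 without both mice and 1 to 5 leaving out 1 mouse. The share of all genes at that level was 2.14% as reported. It was 4.93% with 2 RUVg factors, 7.92% in series 1 and 0.944% in series 2. It was 1.51% with the striatal score, 3.59% with the cortical score and 13.4% without both mice. Leaving out 1 mouse gave shares of 1.21% to 6.92%. Averaged over the sexes, the 0 past the threshold became 5 in series 1, 4 without both mice and 0 to 2 leaving out 1 mouse (2 without E249 or E227). The 6 at an unadjusted p under 0.05 became 10 with 2 RUVg factors and 0 in series 2. They became 3 with the striatal score, 12 without both mice and 4 to 9 leaving out 1 mouse. The share of all genes at that level was 13.9% as reported, 21.6% with 2 RUVg factors and 1.29% in series 2. It was 8.34% with the striatal score, 25.7% without both mice and 9.70% to 20.3% leaving out 1 mouse. The genes past the threshold for this average numbered 42 as reported, 886 in series 1, 1249 without both mice, 791 without E249 and 668 without E227. Between the sexes, the 0 past the threshold became 1 without both mice or without E227, where 516 and 813 genes passed, against 21 as reported. The 4 members at an unadjusted p under 0.05 became 7 in series 1, 0 in series 2, 0 with the cortical score, and 2 to 7 leaving out 1 mouse. The share of all genes at that level was 13.6% as reported. It was 11.5%, 3.52%, 1.53% and 8.30% to 23.9% in the same order.

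Of 159 counts under alternatives other than leaving out 1 mouse, 113 stayed within 1.5 times the reported count. The reported count past the threshold was 0 in each of the 5 comparisons, and 0 against 0 was taken as unchanged. The 113 is therefore no measure of how stable the counts above 0 were. No paired analysis was possible because the mice share no number between groups. Counting error is small beside the spread between mice for all members but Homer3.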
